A study of Mus musculus with 4 samples.

Results

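The circadian clock and its output were followed in cultured CD4+ T cells through 10 genes: Nfil3, Bhlhe40, Per1, Per2, Cry1, Cry2, Arntl, Clock, Nr1d1 and Dbp. All 10 were found by symbol among the 34745 genes of the deposited table, and all 10 passed the filter on low counts. They were chosen by name with the difference between the 2 groups of this series already known, so their levels and fold changes are given as a description and support no claim about the clock genes as a group. The libraries were made from naive CD4+ T cells of the spleen of C57BL/6 mice, kept for 3 days in conditions that favour regulatory T (Treg) cells, a lineage that restrains immune responses. The 2 wild-type libraries carry the numbers 13 and 15, and the 2 libraries with the genotype label Setd2-CD4 cre carry the numbers 22 and 24. Setd2 is the enzyme that trimethylates lysine 36 of histone H3, and a Cre recombinase driven by CD4 acts in T cells from the thymus onwards, in CD4+ and CD8+ descendants alike. The labels give the day of collection and not its hour, and nothing in them ties the 2 libraries of a genotype to different animals, so the spread measured between libraries may be technical.

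The clock is a feedback loop of transcription factors that runs in most cells of the body. Arntl (also called BMAL1) and Clock form a dimer that binds E-box sequences and switches on the Per and Cry genes, whose proteins return to the nucleus and block the dimer. The same dimer drives Nr1d1 (REV-ERB alpha), a nuclear receptor that represses Arntl and Nfil3 through ROR elements, and Dbp, an activator that shares D-box sites with the repressor Nfil3 (also called E4BP4). Bhlhe40 (also called DEC1 or STRA13) binds E-boxes as a repressor. In T cells Nfil3 and Bhlhe40 are better known outside the clock: Nfil3 for control of cytokine genes and of innate lymphoid development, Bhlhe40 for repression of Il10 and support of inflammatory cytokines.

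The targeted gene and the identity of the cells were examined first. Setd2 stood at 137, 146, 137 and 113 CPM (a count divided by the scaled size of its library) in wild type 13, wild type 15, library 22 and library 24, and edgeR gave a log2 difference of -0.17 with an SE of 0.14 (adjusted p = 0.436). Counts were made over the whole gene and the labels name no deleted exon, so these values do not check the deletion, and libraries 22 and 24 are called knockout-labelled. Cd3e and Cd4, which define the cells, stood at 259 to 291 and 986 to 1257 CPM, and the 7 CD4 T cell markers summed to 3536 and 3366 CPM in wild type and to 3365 and 3364 CPM in the knockout-labelled pair. Foxp3, the defining factor of Treg cells, was 242, 247, 31.9 and 75.8 CPM in the same order of libraries. The other 3 of the 4 Treg markers did not move alike: Il2ra, the IL-2 receptor alpha chain, stood at 1193, 1231, 828 and 857 CPM, Ctla4, an inhibitory receptor, at 684, 676, 968 and 835 CPM, and Ikzf2 (Helios) at 167, 165, 221 and 201 CPM. Foxp3 and Il2ra were called lower (Il2ra adjusted p = 0.0304, and 0.166 without library 13 and 0.247 without library 15). Ctla4 and Ikzf2 had higher means, with groups that do not overlap, and were not called (adjusted p = 0.0702 and 0.103). Markers of other cells were also present. The 6 B cell markers summed to 222 and 225 CPM against 282 and 332 CPM, mostly Ighm. Without Ighm the other 5 summed to 15.6 and 13.9 CPM against 35.6 and 24.4 CPM. The 5 gamma-delta T cell markers summed to 17.8 and 15.7 CPM against 39.5 and 58.1 CPM. Of the 4 gamma-delta markers tested, 3 were called higher and 0 lower, beside 5.53% and 4.59% of all genes tested. Cd163l1, among those called, had 5 and 8 counts in wild type and 87 and 114 in the knockout-labelled pair. It passed the filter on low counts only through the knockout-labelled libraries, so that count is a description. The 7 markers of natural killer and innate lymphoid cells summed to 148 and 158 CPM against 310 and 189 CPM. Kit alone made that sum higher, and the other 6 summed to 43.1 and 39.8 CPM against 34.5 and 26.6 CPM. Of this list Klre1 was called higher (1.16, 2.08, 5.09 and 4.66 CPM; adjusted p = 0.044, and 0.204, 0.0914 and 0.0716 without libraries 13, 15 and 22) and Eomes lower, and the defining receptor Ncr1 had 0, 0, 8 and 3 counts. The 2 CD8 markers summed to 125 and 183 CPM against 182 and 78.4 CPM, and the 8 myeloid markers to 30.9 to 35.6 CPM in all 4 libraries. The part of these markers in the results that follow was not tested, and in bulk RNA fewer cells of a type and less RNA per cell cannot be told apart.

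Sequence motifs of the loop could be looked up in 300-base windows around gene starts, 250 bases before and 50 after, taken from RefSeq (GRCm38.p6). The table matched 8 of the 10 genes, in 12 windows, and held no entry for Bhlhe40 and Per2. The E-box was searched as CACGTG, the D-box as TTATGTAA or TTACGTAA and the ROR element as TAGGTCA or TGGGTCA, each on both strands. An E-box was found in 2 of the 12 windows, 1 of Per1 and 1 of Cry1, against 7.15% of all 32851 windows. A ROR element was found in 2 of the 12, 1 of Arntl and 1 of Nfil3, against 6.45% of windows, and a D-box in 0, against 1.06%. The E-box of Per1 begins 166 bases before an annotated start that lies inside the longer gene model, and that of Cry1 60 bases before its start. The ROR elements fall close to the start, 12 bases before it for Nfil3, on the opposite strand, and at base 31 after it for Arntl. Both lie in exonic sequence of the GENCODE models, so only 30 bases around each are shown. These 4 sequences are printed because they hold a motif of regulators of the loop that are known to act on these members. The windows of Clock, Cry2, Nr1d1 and Dbp held no match. Capitals mark the motif, each reads 5′ to 3′ on the strand of its gene, and a match is a description and not a bound site.
Per1 (chr11:69098699-69098947, plus strand): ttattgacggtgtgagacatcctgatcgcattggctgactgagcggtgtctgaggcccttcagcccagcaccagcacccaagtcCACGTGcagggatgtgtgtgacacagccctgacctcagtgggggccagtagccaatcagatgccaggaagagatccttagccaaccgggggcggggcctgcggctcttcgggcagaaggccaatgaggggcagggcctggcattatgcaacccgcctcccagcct
Cry1 (chr10:85185065-85185304, minus strand): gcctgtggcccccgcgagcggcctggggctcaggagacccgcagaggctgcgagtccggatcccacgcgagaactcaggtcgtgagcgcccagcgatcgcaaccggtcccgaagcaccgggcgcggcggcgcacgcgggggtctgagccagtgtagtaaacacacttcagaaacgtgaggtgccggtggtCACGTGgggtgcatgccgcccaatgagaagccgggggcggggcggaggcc
Arntl (chr7:113207530-113207559, plus strand): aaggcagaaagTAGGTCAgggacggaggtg
Nfil3 (chr13:52981033-52981062, minus strand): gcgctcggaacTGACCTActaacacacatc

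Higher means were seen in the knockout-labelled libraries for 6 members (Nfil3, Bhlhe40, Per1, Nr1d1, Arntl and Cry1), Per2 had a lower mean, and Cry2, Clock and Dbp differed little. By the fit across all 13279 genes tested (edgeR, adjusted p below 0.05), 5 of the 10 were called higher and 1 lower, where 10.1% of all genes were called, 5.53% higher and 4.59% lower. Because this contrast chose the members, nothing is read from that count. The number of members called fell with either wild-type library left out and rose without library 24. The number called over all genes tested did the same. The CPM values of the 2 groups did not overlap for 8 of the 10, against 63.8% of all genes tested. The median log2 fold change was 0.63 over the members and -0.00133 over all genes tested. These comparisons are descriptions too, since this contrast chose the members.

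**Figure D1:**
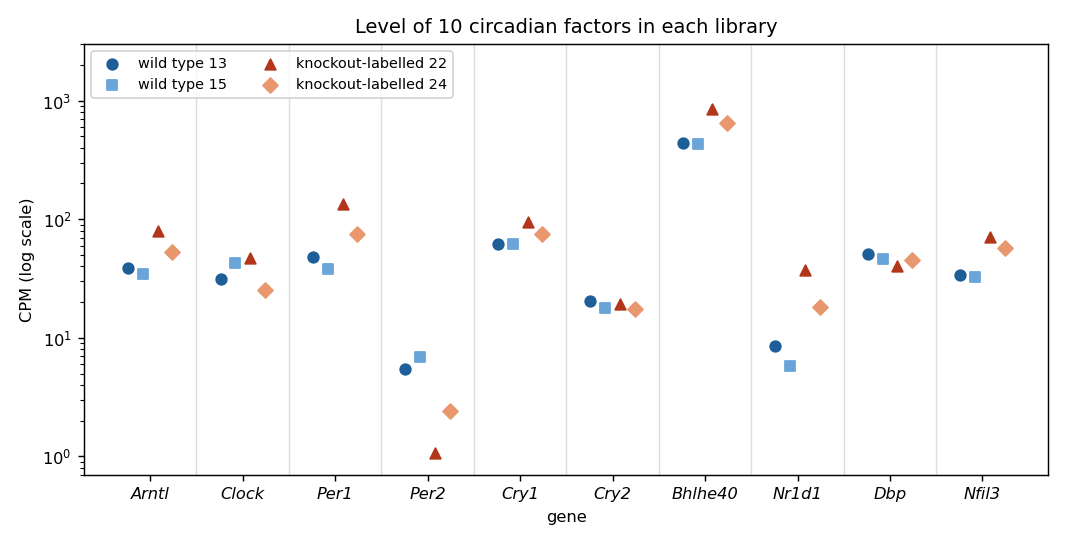
Level of each of the 10 genes in CPM (log scale) in the 4 libraries: circles and squares are wild type 13 and 15, triangles and diamonds knockout-labelled 22 and 24. For Nfil3, Bhlhe40, Per1, Nr1d1, Arntl and Cry1 both knockout-labelled points lie above both wild-type points, for Per2 and Dbp both lie below, and for Clock and Cry2 the groups overlap.

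The activators of the loop differed from each other. Arntl (ENSMUSG00000055116, chromosome 7, 113207465 to 113314122, plus strand, GRCm38) stood at 38.7 and 34.2 CPM in wild type and at 79.2 and 53.3 CPM in knockout-labelled 22 and 24. Its lowest knockout-labelled value was above its highest wild-type value, with group means of 36.4 ± 3.15 and 66.3 ± 18.3 CPM (SD, n = 2 each) and a log2 fold change of 0.86 (SE 0.21). Its partner Clock (ENSMUSG00000029238, chromosome 5, 76209868 to 76304792, minus strand) stood at 31.6 and 42.3 CPM in wild type and at 47.4 and 25.1 CPM in the knockout-labelled pair. The knockout-labelled libraries thus held both the highest and the lowest value of Clock, and its log2 fold change of -0.03 (SE 0.30) lay well within the spread between libraries. Without knockout-labelled 22 it was -0.54 and without library 24 it was 0.36. Without wild type 13 it was -0.23 and without wild type 15 it was 0.19, so its sign depends on the libraries used. Without knockout-labelled 22 the log2 fold change of Arntl was 0.56.

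The Period genes went in opposite directions. Per1 (ENSMUSG00000020893, chromosome 11, 69095217 to 69109960, plus strand), which responds quickly to outside signals as well as to the clock, stood at 48.0 and 38.1 CPM in wild type and at 135 and 75.6 CPM in the knockout-labelled pair. Both knockout-labelled libraries were above both wild-type libraries, and library 22 was the highest. The means were 43.0 ± 6.99 and 105 ± 41.7 CPM (SD, n = 2 each), 2.44-fold higher, with a log2 fold change of 1.29 (SE 0.28; 0.82 without library 22). Per2 (ENSMUSG00000055866, chromosome 1, 91415982 to 91459324, minus strand), the paralog whose loss disturbs behavioural rhythms, had only 89 and 102 counts in wild type and 16 and 38 counts in the knockout-labelled pair, or 5.45, 6.84, 1.07 and 2.43 CPM. Every one of these lay above the level of 3 counts, 0.184 to 0.201 CPM, and both knockout-labelled values were below both wild-type values. The means were 6.15 ± 0.981 and 1.75 ± 0.958 CPM (SD, n = 2 each), 3.49-fold lower, with a log2 fold change of -1.80 (SE 0.41; -2.51 without library 24 and -1.33 without library 22).

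The Cryptochrome genes, whose proteins are the stronger repressors of the Arntl and Clock dimer, also differed. Cry1 (ENSMUSG00000020038, chromosome 10, 85131702 to 85185054, minus strand) stood at 61.3 CPM in each wild-type library and at 94.5 and 75.5 CPM in the knockout-labelled pair. The groups did not overlap, and the wild-type values were closer to each other than for any other member. Its log2 fold change was 0.47 (SE 0.15), and it was not among the members called. Cry2 (ENSMUSG00000068742, chromosome 2, 92403646 to 92434043, minus strand) stood at 20.5, 18.0, 19.1 and 17.6 CPM, with a log2 fold change of -0.07 (SE 0.17) and overlapping groups.

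Bhlhe40 (ENSMUSG00000030103, chromosome 6, 108660629 to 108666925, plus strand) was the most abundant member. It stood at 443 and 434 CPM in wild type and at 854 and 652 CPM in the knockout-labelled pair. The wild-type libraries were close together and both knockout-labelled libraries were above them, with means of 438 ± 6.38 and 753 ± 143 CPM (SD, n = 2 each), 1.72-fold higher. The log2 fold change was 0.78 (SE 0.15; 0.58 without library 22). A total of 118 exonic bases are shared with an antisense transcript, 0610040F04Rik. Of the members above, Cry2 shares 295 exonic bases with D930015M05Rik and Arntl 33 with Gm45355, both also on the other strand. The labels do not state whether counting used strand, so reads from such overlaps cannot be assigned.

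Nr1d1 (ENSMUSG00000020889, chromosome 11, 98767932 to 98775333, minus strand) had the largest positive fold change of the 10. It stood at 8.58 and 5.84 CPM in wild type and at 37.4 and 18.1 CPM in the knockout-labelled pair, 3.84-fold higher. The 2 knockout-labelled libraries differed from each other by 1.04 on the log2 scale, and the lower of them was still above both wild-type libraries. The log2 fold change was 1.94 (SE 0.38), 1.34 without library 22 and 2.37 without library 24. The 3' end of Nr1d1 shares 263 exonic bases with Thra, the thyroid hormone receptor gene on the other strand, which stood at 39.3 and 39.4 CPM in wild type and at 51.7 and 52.1 CPM in the knockout-labelled pair (log2 fold change 0.40, SE 0.12, adjusted p = 0.0792).

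The 2 factors that compete at D-boxes did not move alike. Nfil3 (ENSMUSG00000056749, chromosome 13, 52967209 to 52981073, minus strand) stood at 33.8 and 32.5 CPM in wild type and at 71.1 and 56.7 CPM in the knockout-labelled pair. Both knockout-labelled values were clear of the wild-type values, with means of 33.2 ± 0.916 and 63.9 ± 10.2 CPM (SD, n = 2 each), 1.92-fold higher, and a log2 fold change of 0.94 (SE 0.15; 0.78 to 1.09 with each library left out in turn). Dbp (ENSMUSG00000059824, chromosome 7, 45705088 to 45710155, plus strand), the activator, stood at 50.6 and 45.8 CPM in wild type and at 40.6 and 45.1 CPM in the knockout-labelled pair. Its knockout-labelled values were the 2 lowest, but by less than the gap between replicates, with a log2 fold change of -0.17 (SE 0.13). Dbp shares 539 exonic bases with Sphk2 on the other strand.

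**Figure D2:**
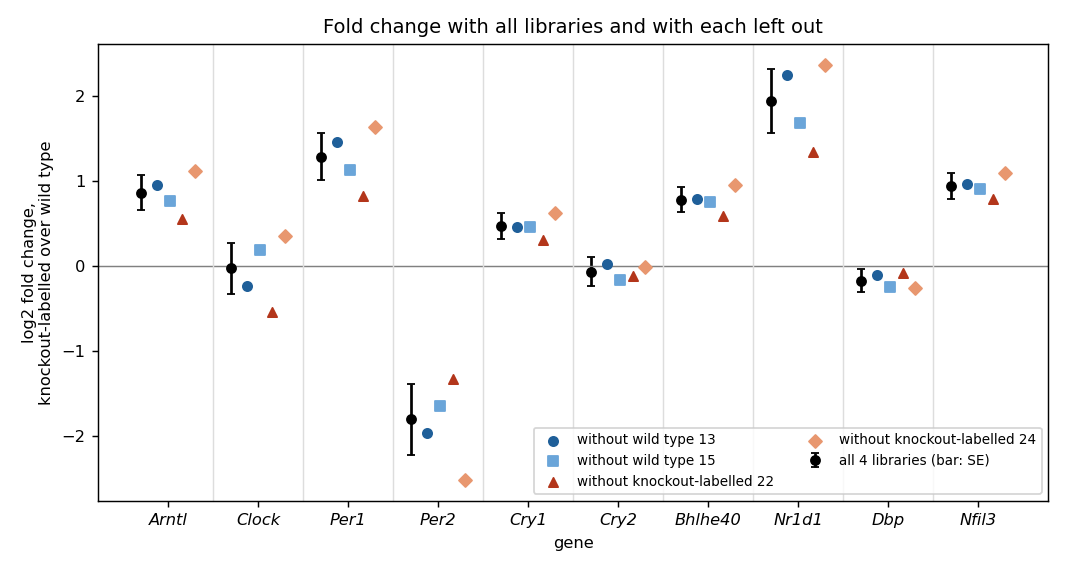
Log2 fold change of each gene, knockout-labelled over wild type: black circles use all 4 libraries, with SE bars, and coloured points leave out 1 library. Leaving out knockout-labelled 22 brings Per1, Nr1d1, Arntl and Bhlhe40 closer to 0, leaving out knockout-labelled 24 moves them away, and the points of Clock fall on both sides of 0.

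The knockout-labelled libraries were not equally far from wild type. In 8 of the 10 genes library 22 lay farther from the wild-type mean than library 24 on the log2 scale, Clock and Cry2 being the other two. Over all genes tested, library 22 was the farther one for 62.2% of genes. On this scale Per1 was 1.65 above the wild-type mean in library 22 and 0.82 in library 24, Nr1d1 2.38 and 1.34, Arntl 1.12 and 0.55, and Nfil3 1.10 and 0.77. Per2 was -2.38 and -1.29 from it.

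Ratios of members within a library do not depend on how libraries are scaled. The pairs were picked after their values were seen and use the FPKM of the authors' deposited table (counts scaled by gene length and library total). The ratio of Per1 to Per2 was 6.29 and 3.98 in wild type 13 and 15 and 89.9 and 22.3 in knockout-labelled 22 and 24. That of Arntl to Per2 was 14.4 and 10.2 against 151 and 44.7. The ratio of the repressor Nfil3 to the activator Dbp was 1.66 and 1.77 in wild type and 4.36 and 3.13 in the knockout-labelled pair. That of Nr1d1 to Dbp was 0.244 and 0.183 against 1.33 and 0.578. Bhlhe40 and Nfil3 kept nearly the same ratio in all 4 libraries, 4.15, 4.22, 3.80 and 3.64. How a ratio differs between libraries does not depend on gene length, but its size does. Count and FPKM imply a length of 5036 bases for Dbp, while its exons in GENCODE M21 cover 2993 bases, and 2026 bases for Nfil3 in both. With the GENCODE lengths, an alternative chosen after seeing the data, the ratio of Nfil3 to Dbp was 0.988 and 1.05 in wild type and 2.59 and 1.86 in the knockout-labelled pair, and that of Nr1d1 to Dbp 0.165, 0.124, 0.897 and 0.391. Which of Nfil3 and Dbp was the higher in wild type, and which of Nr1d1 and Dbp in library 22, thus rests on the length used. So does the order of the ratios to Per2. With the GENCODE lengths that of Arntl to Per2 was 5.52 and 3.89 in wild type and 57.6 and 17.1 in the knockout-labelled pair. That of Per1 to Per2 was then the larger in every library, at 9.15, 5.79, 131 and 32.4.

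**Figure D3:**
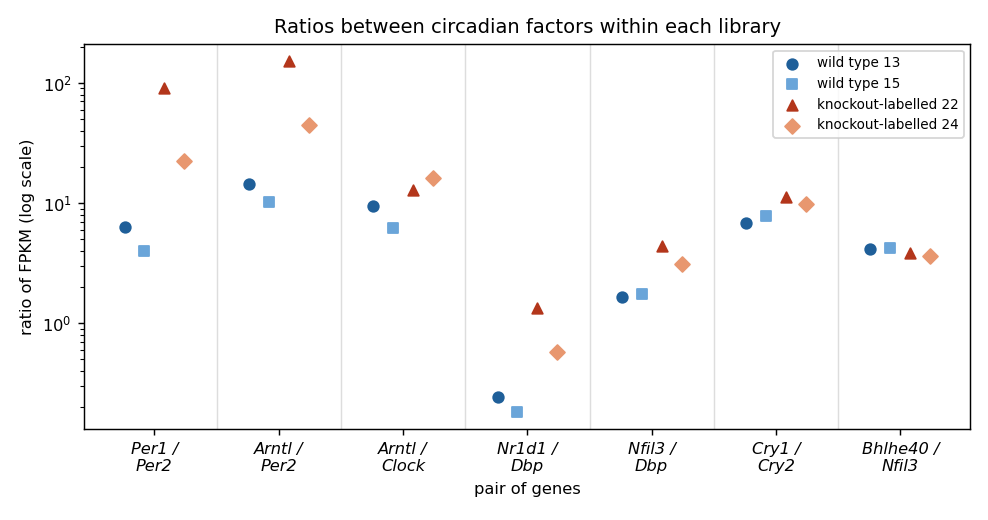
Ratio of the FPKM of pairs of members within each library (log scale), with the same symbols for the 4 libraries as in the plot of levels. The ratios of Per1 and of Arntl to Per2 are the most spread out, from 3.98 to 89.9 and from 10.2 to 151, while that of Bhlhe40 to Nfil3 stays between 3.64 and 4.22.

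Levels of different genes were ordered by FPKM, which divides by gene length. In wild type the order was Bhlhe40 (69.9 ± 0.862 FPKM), Cry1 (20.7 ± 0.0377), Nfil3 (16.7 ± 0.424), Arntl (12.8 ± 1.08), Dbp (9.75 ± 0.657), Per1 (5.31 ± 0.850), Cry2 (2.84 ± 0.254), Nr1d1 (2.10 ± 0.560), Clock (1.69 ± 0.353) and Per2 (1.06 ± 0.172; SD, n = 2 each). Among these neighbours only Nr1d1 and Clock had overlapping values. In the knockout-labelled pair Nfil3 (30.8 ± 3.97 FPKM) stood above Cry1 (27.6 ± 3.51) and Arntl (22.3 ± 5.50), with values that overlap between neighbours, and Nr1d1 (7.71 ± 3.57) overlapped with Dbp (8.34 ± 0.876). Per1 (12.4 ± 4.56 FPKM) was above Dbp in both libraries, and Per2 (0.292 ± 0.168) was lowest. This order rests on the lengths used, which differ from the GENCODE exon lengths most for Arntl (2904 implied bases against 7523), Dbp (5036 against 2993), Clock (22241 against 13727) and Per1 (8265 against 5631). With the GENCODE lengths Arntl was at 4.94 ± 0.416 in wild type, below Dbp (16.4 ± 1.11) and Per1 (7.79 ± 1.25), and Dbp overlapped with Nfil3 (16.7 ± 0.424; SD, n = 2 each). Clock (2.74 ± 0.571) then stood above Nr1d1 (2.39 ± 0.638), again with overlapping values. In the knockout-labelled pair Per1 was then above Dbp in library 22 (22.9 against 13.0) and below it in library 24 (13.4 against 15.1). Bhlhe40 stayed the highest and Per2 the lowest in both groups.

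The genes most like Nfil3 and Bhlhe40 across the 4 libraries were sought by the smallest distance between log2 CPM values centred on each gene's mean, over 9866 other genes with a mean of 5 CPM or more over the 4 libraries, leaving out predicted genes and those with clone names. For Nfil3 they were Mrpl9, Smim3 and Fbxo33, at distances of 0.0191, 0.0460 and 0.0659 on the log2 scale. Mrpl9 stood at 73.5, 71.2, 153 and 122 CPM in wild type 13 and 15 and knockout-labelled 22 and 24. For Bhlhe40 they were Klf4, Twsg1 and Plekha2, at distances of 0.0231, 0.0292 and 0.0528. Klf4 had only 4.47, 4.43, 8.63 and 6.64 CPM and reached the 5 CPM mean through the knockout-labelled libraries. With 4 libraries in 2 groups, such likeness mostly reflects the difference between groups and the order within them.

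Other genes of the clock pathway that are not members were taken from lists written from general knowledge. Of 54 genes, 51 could be tested, of which 7 rose and 1 fell. The other 43 missed the threshold, and the median of the 51 was 0.10 on the log2 scale. The share that rose is read against the 5.53% of all genes that did, and the share that fell against 4.59%. The number called in this list fell with either wild-type library left out and rose without library 24. The number called over all genes tested did the same. With limma on log2(FPKM + 1) or log2(FPKM + 0.1) 2 passed as higher, Tsc22d3 among them, and none passed in either direction against a minimum fold of 1.5. Nuclear receptors that act at ROR elements were among those that rose. Rora, an activator of Arntl, went from 89.1 and 83.7 CPM to 366 and 167 CPM (log2 fold change 1.63, SE 0.34, adjusted p = 0.0348; 0.0819 without library 15, and a log2 fold change of 0.96 without library 22). Nr1d2, the paralog of Nr1d1, went from 51.6 and 50.3 CPM to 123 and 78.6 CPM (log2 fold change 0.99, SE 0.22, adjusted p = 0.0406; 0.122 without library 13 and 0.163 without library 15; a log2 fold change of 0.64 without library 22). The summed markers of gamma-delta T cells, given above, were higher in both knockout-labelled libraries, and those of innate lymphoid cells were higher with Kit and lower without it. Their part in these values was not tested. Rorb, the form of retina and brain, had 3 counts in knockout-labelled 24 and 0 elsewhere and was not tested.

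Among the repressors, Bhlhe41, the paralog of Bhlhe40, rose from 0.858 and 0.939 CPM to 3.08 and 2.74 CPM (log2 fold change 1.69, SE 0.37, adjusted p = 0.0397), at levels far below Bhlhe40. It missed the threshold without library 13 (adjusted p = 0.203), library 15 (0.218) or library 22 (0.0701). Timeless, which in mammals serves mainly at replication forks, fell from 108 and 115 CPM to 45.4 and 59.6 CPM (log2 fold change -1.09, SE 0.17, adjusted p = 0.0199; 0.0785 without library 15). Per3, the Period paralog thought to matter least for the rhythm, stood at 18.6, 17.8, 14.9 and 19.9 CPM, with overlapping groups (log2 fold change -0.06, SE 0.20, adjusted p = 0.852). Ciart stood at 2.21, 1.95, 2.34 and 0.957 CPM (adjusted p = 0.669). Of the activators, Npas2, which can stand in for Clock, stood at 20.9, 19.8, 21.7 and 21.9 CPM (adjusted p = 0.692), and Arntl2 at 2.15 to 3.06 CPM (adjusted p = 0.467).

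The relatives of Dbp had higher means without passing the threshold. Hlf stood at 4.04, 2.08, 11.98 and 4.02 CPM (log2 fold change 1.37, SE 0.56, adjusted p = 0.149; 0.019 without library 24), where library 22 alone stood apart. Tef stood at 42.7, 37.4, 49.5 and 49.9 CPM (log2 fold change 0.31, SE 0.13, adjusted p = 0.163). Over all genes tested, 5.53% rose and 4.59% fell past the threshold. Of 21 kinases, phosphatases and ubiquitin ligases that set the stability of clock proteins, 2 rose and none fell. They were Csnk2a2 and Csnk2b, subunits of casein kinase 2, which differed by 0.73 on the log2 scale (SE 0.17, adjusted p = 0.0435) and 0.54 (SE 0.12, adjusted p = 0.0435; 0.0562 with library totals as scaling). Neither passed without library 13 (adjusted p = 0.182 and 0.276) or library 15 (0.260 and 0.397). Of 13 cofactors none passed, and of 6 output genes Tsc22d3, which glucocorticoids also induce, rose from 85.1 and 66.6 CPM to 174 and 165 CPM (log2 fold change 1.16, SE 0.16, adjusted p = 0.016; 0.095 without library 15).

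**Figure D4:**
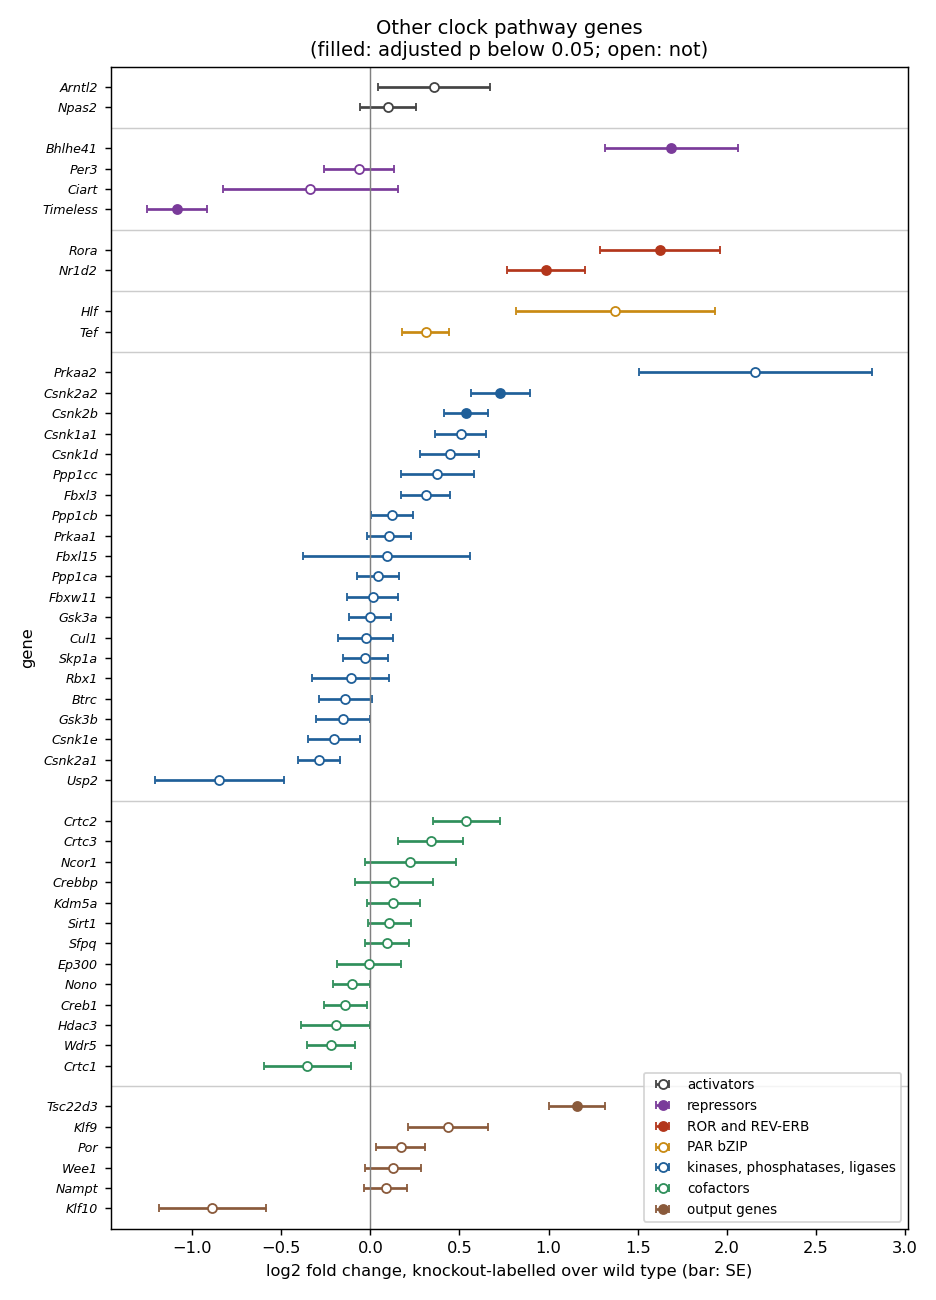
Log2 fold change with SE of 50 of the other clock pathway genes tested, grouped by role; filled circles passed an adjusted p of 0.05. The filled points are Bhlhe41, Rora, Nr1d2, Csnk2a2, Csnk2b and Tsc22d3 above 0 and Timeless below 0.

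Genes that Nfil3 or Bhlhe40 are reported to regulate or accompany in T cells were listed as well. Several were known from earlier results of these files, so their count is a description only. Of 19 tested, 4 were higher and 2 lower, and their median difference was 0.27 on the log2 scale, beside 5.53% higher, 4.59% lower and a median of -0.00133 over all genes tested. The number called in this list fell with either wild-type library left out and rose without library 22. The number called over all genes tested did the same. Il10, on which both factors act, stood at 17.0, 16.6, 18.5 and 17.8 CPM (log2 fold change 0.12, SE 0.16, adjusted p = 0.658). Csf2, a cytokine that Bhlhe40 supports, stood at 1.27 to 2.23 CPM (log2 fold change 0.51, SE 0.39, adjusted p = 0.407). Among the genes called higher were Havcr2 (TIM-3, a checkpoint receptor linked to Nfil3), Il1r1 and Il17a, which differed by 1.64, 1.46 and 1.95 on the log2 scale (adjusted p = 0.0184, 0.0135 and 0.00947). Havcr2 and Il1r1 missed the threshold without library 15 (adjusted p = 0.0708 and 0.0603). Those called lower were Foxp3 and Eomes, which differed by -2.18 and -1.32 on the log2 scale (adjusted p = 0.0233 and 0.0205). Eomes missed the threshold without library 13 (adjusted p = 0.0509) or 15 (0.0558). Foxp3 passed with any library left out, at -1.68 to -2.94.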

How the data were processed

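RNA was sequenced from 4 cultures, 2 per genotype label, grouped by title. The submitters' processing notes name RSEM, Bowtie2 and the genome GRCm38.p6 (mm10), with no version. Annotation and strand setting: not given in the sources used here. The deposited table holds whole-number counts per gene and, from the authors, FPKM values; whether RSEM estimates were rounded is not stated. Totals were 14599957 to 16030869 counts.

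Counts were fitted with edgeR 4.0.16 in R 4.3.3: filterByExpr (minimum count 10, total 15), TMM scaling, glmQLFit and glmQLFTest across all genes, two-sided, Benjamini-Hochberg adjustment, threshold 0.05. The SE is the log2 fold change over the square root of F. CPM use TMM-scaled library sizes. An exact test of 2 against 2 cannot give a p below 0.333. The fit was tested on simulated data with known answers. These gave both groups the same spread, so no rate of missed or false calls in the present libraries is taken from them.

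Members and lists were chosen with earlier results of these data known. Named are all members, the smaller clock lists whole, other listed genes past the threshold (1 gene that the rule takes is counted but not reported here), and the 3 nearest patterns of Nfil3 and Bhlhe40. Annotation came from GENCODE M21, promoters from RefSeq. Alternatives were DESeq2 1.42.0, limma 3.58.1 on log2(FPKM + 1) and log2(FPKM + 0.1), other scalings and filters, a minimum fold of 1.5, GENCODE exon lengths for levels (added after seeing the data) and leaving out each library; with 1 library left, it is assumed to vary like the other group.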

Additional observations from a re-analysis of the deposited data

How the results depend on the processing

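No paired analysis was possible because the libraries of the 2 groups share no number. With only 2 libraries a group, leaving out 1 decides many calls. Over all genes, the count higher and lower was 734 and 610. It ranged from 120 to 2122 higher and from 70 to 2002 lower with each library left out, and was 1261 and 1088 with no filter, 85 and 35 against a minimum fold of 1.5, and 445 and 457 higher with limma on log2(FPKM + 1) and log2(FPKM + 0.1) (446 and 434 lower). With DESeq2 it was 1098 and 912, and with library totals 674 and 771, which turns the excess of higher genes. For the members it ranged from 0 to 6 higher and from 0 to 1 lower with each library left out. It was 0 and 0 against a minimum fold of 1.5, 2 higher with log2(FPKM + 1), and 3 higher and 0 lower with log2(FPKM + 0.1). A filter of 5 CPM left 0 lower, because Per2 was then not tested. For the other clock pathway genes the ranges were 1 to 16 higher and 0 to 3 lower. The counts were 0 and 0 against a minimum fold of 1.5, 2 higher with either FPKM fit, and 2 lower with no filter or DESeq2. For the T cell genes linked to Nfil3 or Bhlhe40 they were 2 to 7 higher and 1 to 2 lower, and 2 and 0 against a minimum fold of 1.5. The cause of these differences was not tested. The log2 fold changes of Nfil3, Bhlhe40, Per1, Nr1d1, Arntl and Cry1 stayed above 0, and that of Per2 below 0, under every alternative run. The CPM values of the groups do not overlap for these genes, so leaving out 1 library could hardly change the sign. That of Per2 was -0.68 on log2(FPKM + 1), where its low level limits the fold. Those of Clock and Cry2 changed sign when single libraries were left out. The level of 3 counts covers counting error only.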
